A study of Mus musculus with 6 samples.

Results

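The genes described here encode the heat shock proteins and chaperonins of the mouse, the machines that fold newly made proteins and refold damaged ones. They were taken by name from the protein-coding rows of a gene table: the HSP70 and HSP110 families (Hspa, Hsph), HSP90 (Hsp90), the small heat shock proteins (Hspb), the mitochondrial chaperonin and its cap (Hspd1, Hspe1), the J proteins (Dnaja, Dnajb, Dnajc), and the subunits of the cytosolic chaperonin CCT (Tcp1 and the Cct genes). There were 83 such genes of 55471 gene IDs.

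The RNA came from GMLPs, a class of myeloid and lymphoid progenitor sorted from mouse bone marrow and kept for 3 days in culture with DOX. The L28BME mice carry both LIN28B, an RNA-binding protein that blocks maturation of let-7 microRNAs, and MLL-ENL, a leukaemia fusion protein, and the ME mice carry MLL-ENL alone. There are 3 libraries of each. The labels give the genotypes as LIN28B with MLL-ENL and as MLL-ENL, and do not give the promoter or driver behind either allele, the age of the mice, or whether the libraries came from separate animals or cultures, so the p-values measure the spread between these libraries only. MLL-ENL, the culture and DOX are shared by both groups, and no group without DOX or without MLL-ENL was analysed here. Levels are given in TPM, a unit of transcript level in which a gene's signal is divided by its length and scaled to the same total in each library.

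Lin28b stood at 11.2, 11.7 and 11.9 TPM in the L28BME libraries and at 0 TPM in each ME library. Among surface markers of the sorted cells, Kit averaged 79.2 TPM in L28BME and 94.1 TPM in ME, and Ptprc averaged 137 TPM in L28BME and 128 TPM in ME. Slamf1 was below 1 TPM in all 6 libraries, and Ly6a stood at 2.07 ± 0.970 TPM in L28BME and 10.6 ± 1.09 TPM in ME (SD, n = 3 each). Cd48 averaged 228 TPM in L28BME and 297 TPM in ME. Of these 5 markers, 4 were tested with limma, as described below. Ly6a and Cd48 were called lower in L28BME (limma adjusted p = 0.00376 and 8.90e-04), and Kit and Ptprc were not called. Of all genes tested, 6.60% were called lower. The depth of the libraries is unknown, because TPM keeps none, and between 13215 and 13288 genes reached 1 TPM in each. Within groups the libraries correlated at 0.9866 to 0.9884, and between groups at 0.9773 to 0.9798, on the log scale across genes. These are bulk samples, so fewer cells of a type and less RNA per cell cannot be told apart.

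HSP70 proteins bind short greasy stretches of unfolded proteins and let them go again, driven by ATP. J proteins bring them their clients and trigger the ATP step, while HSP110 proteins and other exchange factors reset them. HSP90 acts later, on nearly folded clients such as kinases and transcription factors. The chaperonins are closed chambers, CCT in the cytosol for actin, tubulin and other proteins, and Hspd1 with its cap Hspe1 in mitochondria. The endoplasmic reticulum (ER), where secreted and granule proteins are folded, has its own HSP70 (Hspa5, also called BiP), its own HSP90 (Hsp90b1, also called GRP94) and its own J proteins. When unfolded proteins build up there, the unfolded protein response raises these genes through a promoter sequence known as the ER stress element, while heat shock factor raises the cytosolic genes through the heat shock element.

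The promoters of the ER chaperone genes are shown first, since 6 of the 12 members called between the groups are ER genes. The ER stress element was searched as CCAAT, any 9 bases and CCACG, on both strands, in RefSeq windows from 250 bases before to 50 bases after each gene's start (GRCm38.p6). Of 83 members, 67 had a window. The element stood in 3 of them, which are among the 37 of 27025 genes, or 0.137%, that held it in all. The element is already known from promoters of ER chaperone genes, so finding it in them tests nothing. Capitals mark the element, which occurs once in either direction in Hsp90b1, and the Hspa5 stretch lies at chr2:34772020-34772049 on the plus strand, that of Hsp90b1 at chr10:86705510-86705694 on the minus strand and that of Dnajc3 at chr14:118937802-118937931 on the plus strand.
Hspa5: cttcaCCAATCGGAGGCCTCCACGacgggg
Hsp90b1: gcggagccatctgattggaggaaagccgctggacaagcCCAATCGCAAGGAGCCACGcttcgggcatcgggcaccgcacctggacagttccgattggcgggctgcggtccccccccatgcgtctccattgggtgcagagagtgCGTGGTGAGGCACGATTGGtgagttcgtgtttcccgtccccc
Dnajc3: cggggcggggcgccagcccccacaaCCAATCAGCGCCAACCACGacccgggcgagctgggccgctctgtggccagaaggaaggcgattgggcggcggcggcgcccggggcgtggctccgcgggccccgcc

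Relative to the RefSeq start, the element lay at bases -65 to -47 of Hspa5, at -212 to -194 and, on the reverse strand, at -107 to -89 of Hsp90b1, and at -105 to -87 of Dnajc3. The Hspa5 site falls inside the first exon of a GENCODE transcript that starts further upstream. A second form, ATTGG, any base and CCACG, searched on both strands, stood in 12 of 27025 windows, or 0.0444%, and in 1 member, Dnajb11. The Dnajb11 match lay at bases 8 to 18, after the RefSeq start and inside the gene model. Neither form was found for the called ER members Hspa13 and Dnajc10, and not every member had a window. Capitals mark the Dnajb11 match, shown here with 9 bases on either side, at chr16:22857843-22857871 on the plus strand.
Dnajb11: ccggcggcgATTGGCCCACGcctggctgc

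Of the 83 members, 62 reached 1 TPM in at least 3 libraries and were tested, and all of these stood at 1 TPM or more in every library. Levels were compared on the log2(TPM + 1) scale with limma, with p-values adjusted by the Benjamini-Hochberg method over all 13348 genes tested, and calls were made where that p was under 0.05. A fold change is L28BME minus ME on that scale, so a positive value means higher in L28BME. By this test 12 members were called, 19.4% of those tested, against 14.9% of all genes. Only Hspa9 was called higher, 1.61% of the members against 8.28% of all genes, and 11 were called lower, 17.7% of the members against 6.60% of all genes. The groups did not overlap for 25 of the 62, or 40.3%, against 36.7% of all genes. The median log2 fold change was -0.03 over the members and 0.00 over all genes tested, with 27 members above 0 and 35 below. The called members were small in size, with absolute log2 fold changes of 0.11 to 0.74 and a median of 0.32, against 0.39 for all called genes.

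**Figure D1:**
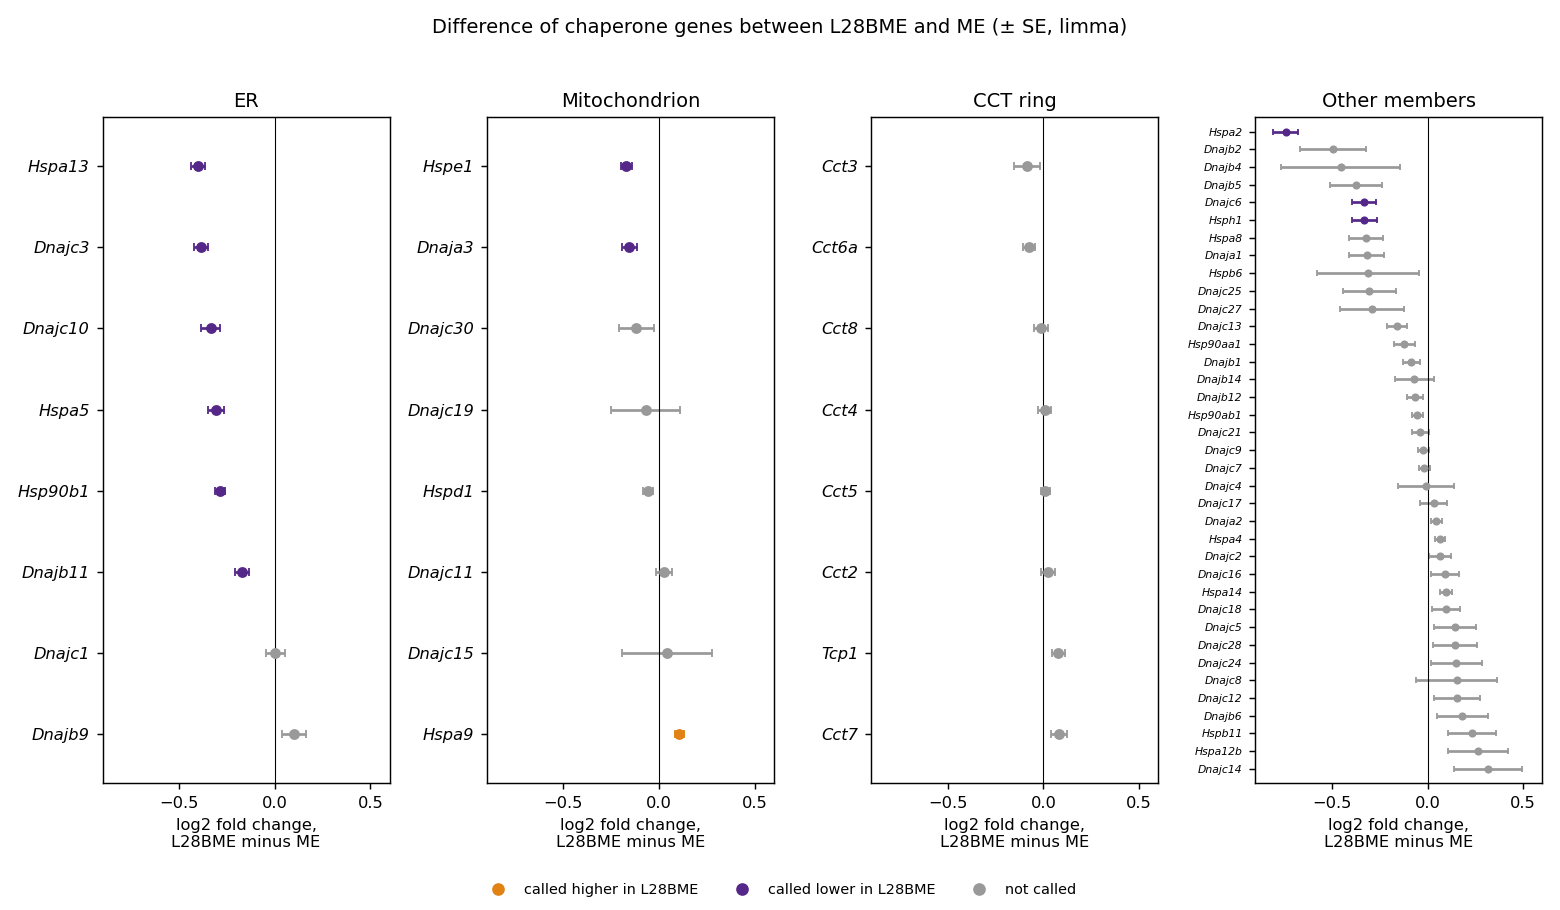
Log2 fold change (L28BME minus ME, on the log2(TPM + 1) scale) of 61 of the 62 tested members, in panels for the ER, the mitochondrion, the CCT ring and all others, with bars for the SE from limma and called members in colour. Most points lie near 0, while 6 of the 8 members assigned to the ER sit below it and are called, and the 8 CCT subunits cluster around 0.

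Most of the members assigned here to the ER fell in L28BME. Of these 8 members, all were tested, 6 fell and 2 were not called, against 6.60% of all genes called lower. The median log2 fold change of the 8 was -0.30. Their TPM summed to 2272, 2268 and 2188 in the L28BME libraries and to 2719, 2767 and 2705 in the ME libraries. The groups did not overlap, and the mean sum was 2243 ± 47.2 TPM in L28BME and 2731 ± 32.5 TPM in ME (SD, n = 3 each), a difference of -17.9%. These compartments were assigned from textbook knowledge after the values had been seen, and the ER set is not complete. Dnajc25 and Dnajc16, also described as ER J proteins, were left out of it. Neither was called (log2 fold change -0.30 and 0.09, limma adjusted p = 0.203 and 0.459).

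Hsp90b1, the HSP90 of the ER and a chaperone of Toll-like receptors and integrins, was the most abundant of them. It had 1094, 1117 and 1082 TPM in the L28BME libraries, against 1327, 1357 and 1333 TPM in the ME libraries. All 3 L28BME libraries lay below all 3 ME libraries, and the gene fell by 0.29 on the log2 scale (SE 0.024, limma adjusted p = 0.00132). A predicted miRNA gene, Gm25745, and a processed transcript, Gm15344, share 133 and 84 of its exonic bases on the same strand.

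Hspa5, the HSP70 of the ER and the sensor partner that restrains the stress receptors of the ER membrane, had 678, 638 and 619.9 TPM in the L28BME libraries, against 784, 821 and 786 TPM in the ME libraries. The groups were well apart, and Hspa5 fell by 0.31 on the log2 scale (SE 0.041, limma adjusted p = 0.00645). Hspa13, a microsomal HSP70 that lacks the usual peptide-binding part, had 43.0, 44.3 and 43.8 TPM in L28BME, against 59.7, 57.3 and 57.1 TPM in ME. Its libraries were tight in both groups, and it fell by 0.40 (SE 0.039, adjusted p = 0.00228).

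Among the ER J proteins, Dnajc3, also known as an inhibitor of the kinase Eif2ak3, had 76.1, 74.8 and 71.4 TPM in L28BME, against 97.4, 95.1 and 98.6 TPM in ME. It fell by 0.39 on the log2 scale (SE 0.039, adjusted p = 0.00249) with no overlap between groups. Dnajc10, a J protein with thioredoxin domains that breaks wrong disulfide bonds, had 125, 126 and 115 TPM in L28BME, against 158, 149 and 154 TPM in ME. It fell by 0.33 (SE 0.048, adjusted p = 0.00801), again with the groups apart.

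Dnajb11, a soluble J protein that delivers clients to Hspa5, had 213, 224 and 212 TPM in L28BME, against 250.2, 246 and 235 TPM in ME. With no overlap between groups, it fell by 0.17 (SE 0.038, adjusted p = 0.0343). That call was lost without L28BME replicate 1 (adjusted p = 0.104), L28BME replicate 3 (0.0957), ME replicate 1 (0.0955) or ME replicate 2 (0.105), whereas the other 5 ER calls held without any 1 library. The other 2 of the 8 members assigned to the ER, Dnajb9 and Dnajc1, were not called. Dnajb9, an Hspa5 partner that represses the sensor Ern1, averaged 24.9 ± 1.03 TPM in L28BME and 23.1 ± 1.43 TPM in ME. Dnajc1, an ER membrane J protein, averaged 19.3 ± 0.474 TPM in L28BME and 19.2 ± 0.439 TPM in ME (SD, n = 3 each). Their log2 fold changes were 0.10 (adjusted p = 0.350) and 0.00 (adjusted p = 0.973).

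**Figure D2:**
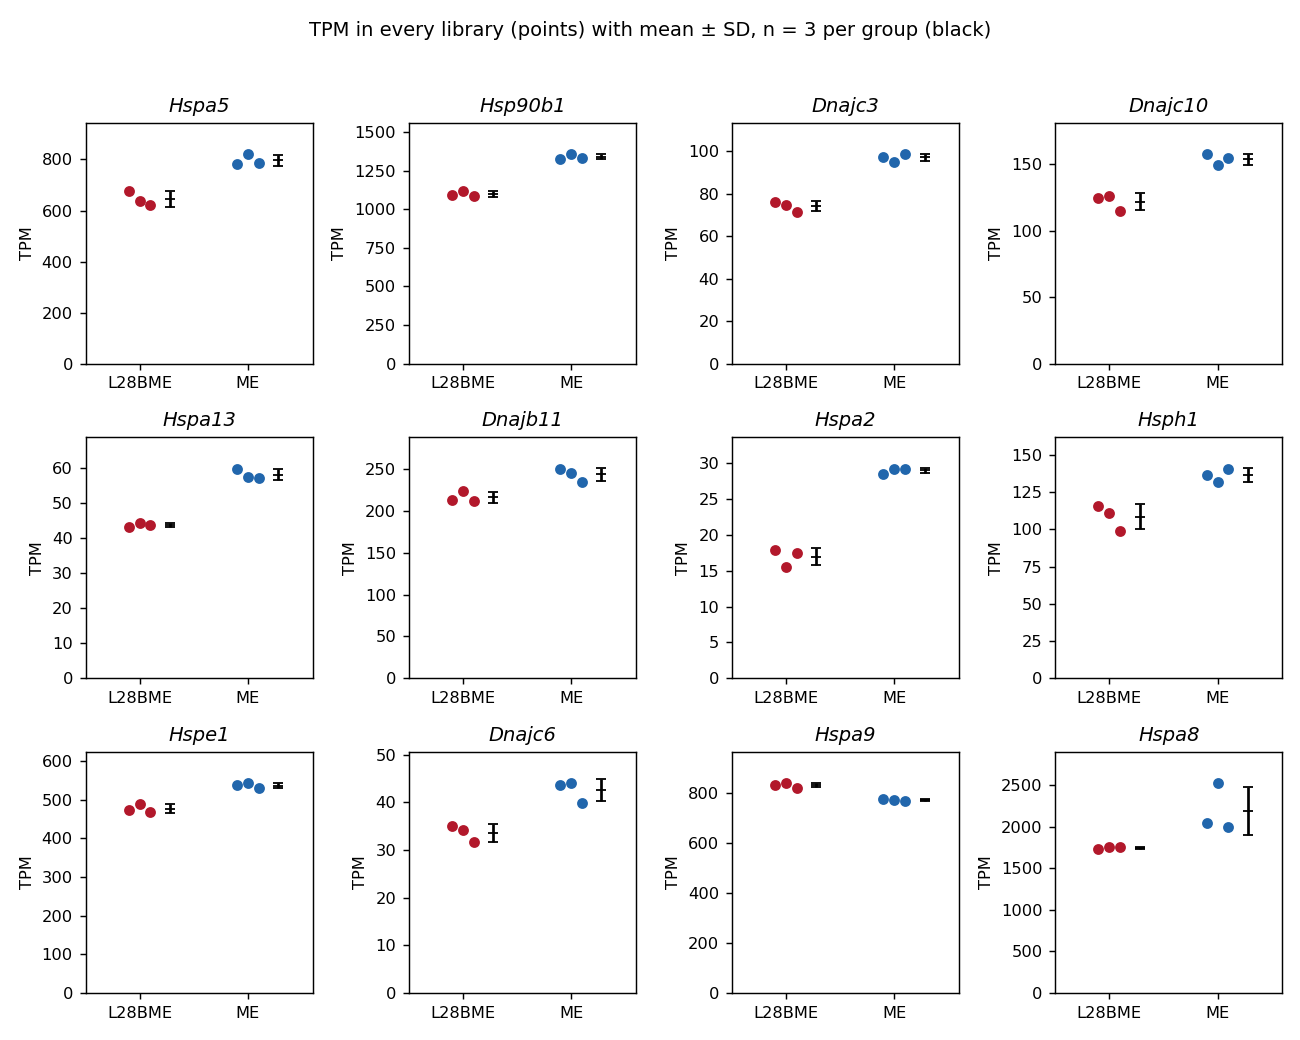
TPM of 11 of the 12 called members (all but Dnaja3) and of Hspa8, which was not called, in the 3 L28BME libraries (left in each panel) and the 3 ME libraries (right). Points are libraries and black bars the mean ± SD, and the groups do not overlap in any panel. Hspa9 is the one member shown that is higher in L28BME, and ME replicate 2 stands apart for Hspa8.

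Genes that act beside these chaperones in the ER also moved. In a list of 21 genes of ER folding, translocation and degradation, 20 were tested, 11 fell, 1 rose and 8 were not called. Of all genes tested, 6.60% were called lower and 8.28% higher. The median log2 fold change of the list was -0.23. The lectin chaperone Calr, which folds glycoproteins, averaged 1974 ± 35.1 TPM in L28BME and 2497 ± 20.7 TPM in ME and fell by 0.34 (limma adjusted p = 7.71e-04). The disulfide isomerase P4hb averaged 1024 ± 6.20 TPM in L28BME and 1300.4 ± 26.3 TPM in ME (adjusted p = 8.45e-04), and the ER protein Cnpy2 averaged 198 ± 11.1 TPM in L28BME and 276 ± 6.92 TPM in ME (adjusted p = 0.00246; SD, n = 3 each). The other genes called lower were the disulfide isomerases Pdia3, Pdia4 and Pdia6, with Sdf2l1, Creld2, Manf, Selenos and Sec61b. The calls of Manf, Selenos and Sec61b were each lost without 3, 4 and 5 of the single libraries, with adjusted p up to 0.0596, 0.0604 and 0.0797.

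The ER list did not move as a block. Ero1l, the oxidase that recharges the disulfide isomerases, had 173, 171 and 168 TPM in the L28BME libraries, against 110.0, 116 and 119 TPM in the ME libraries, and it rose by 0.57 on the log2 scale (SE 0.038, limma adjusted p = 7.35e-04). Canx, the membrane-bound relative of Calr, averaged 620.2 ± 5.33 TPM in L28BME and 626 ± 4.15 TPM in ME (SD, n = 3 each), with a log2 fold change of -0.01 (adjusted p = 0.714). Of the 17 genes of this list with a promoter window, 6 held the ER stress element: Calr, Creld2 and Pdia6, which fell, Canx and Syvn1, which were not called, and Derl3, which was not tested. The match stood in promoters of genes that fell and of Canx, whose fold change was near 0.

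Sil1 and Hyou1, partners of Hspa5 outside the J family, were also called lower. Sil1, which exchanges the nucleotide of Hspa5, had 25.7, 24.8 and 25.6 TPM in L28BME, against 31.3, 31.5 and 31.7 TPM in ME. It fell by 0.30 on the log2 scale (SE 0.042, limma adjusted p = 0.00753). Hyou1, the HSP110 relative of the ER, averaged 222 ± 3.69 TPM in L28BME and 271 ± 19.0 TPM in ME (SD, n = 3 each; adjusted p = 0.0195). The Hyou1 call was lost without L28BME replicate 1 (0.0671), 2 (0.0630) or 3 (0.0517). These were the only calls among the 13 HSP70 co-chaperones, all tested, whose median log2 fold change was -0.02. So 2 of the 13 were called lower and 0 higher, against 6.60% lower and 8.28% higher of all genes. Next came St13, which steadies the ADP form of HSP70 (log2 fold change 0.10, adjusted p = 0.0727), and Bag2 (log2 fold change -0.13, adjusted p = 0.0749). The cytosolic exchange factors Bag1, Bag2, Bag3, Bag4, Bag5 and Bag6 were not called.

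A list of 17 genes of the unfolded protein and integrated stress responses, all tested, showed the opposite balance, with a median log2 fold change of 0.14. Of the 17, 5 were called higher, 1 lower and 11 not called, against 8.28% higher and 6.60% lower of all genes. Asns, which makes asparagine and is induced by amino acid shortage, had 249, 238 and 248 TPM in L28BME, against 139, 144 and 142 TPM in ME, and rose by 0.79 (SE 0.032, limma adjusted p = 1.57e-04). Chac1, which breaks down glutathione, averaged 16.7 ± 1.43 TPM in L28BME and 6.77 ± 0.162 TPM in ME and rose by 1.19 (adjusted p = 6.81e-04). The pseudokinase Trib3 rose by 0.90 (adjusted p = 0.00136), and Sesn2, a leucine sensor that restrains mTORC1, rose by 0.46 (adjusted p = 0.00581). These 4 genes are known targets of the factor Atf4. Atf3, Ddit3, Herpud1 and Ppp1r15a, also described as Atf4 targets, were in the list and were not called. Their log2 fold changes were 0.21, -0.08, 0.21 and 0.14 (limma adjusted p = 0.317, 0.404, 0.235 and 0.106). Atf6, a membrane-bound factor that drives ER chaperone genes once cleaved, rose by 0.24 (adjusted p = 0.0110).

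Xbp1, whose spliced form drives ER chaperone and translocation genes, had 224, 238 and 249 TPM in L28BME, against 279.5, 297 and 279.5 TPM in ME, and fell by 0.27 (SE 0.049, limma adjusted p = 0.0184). Gene TPM does not separate its spliced and unspliced forms. The call was lost without L28BME replicate 2 (0.0552), ME replicate 2 (0.0604) or ME replicate 3 (0.0509). Atf4, named here after its values were seen, had 319, 692 and 308 TPM in L28BME, against 621, 636 and 641 TPM in ME. L28BME replicate 2 stood above every ME library and the other L28BME libraries lay far below them, so the groups overlapped (log2 fold change -0.63, adjusted p = 0.236, and 6.55e-04 without that library). Ddit3, the factor linked to death under ER stress, averaged 24.0 ± 1.53 TPM in L28BME and 25.5 ± 0.471 TPM in ME and was not called.

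**Figure D3:**
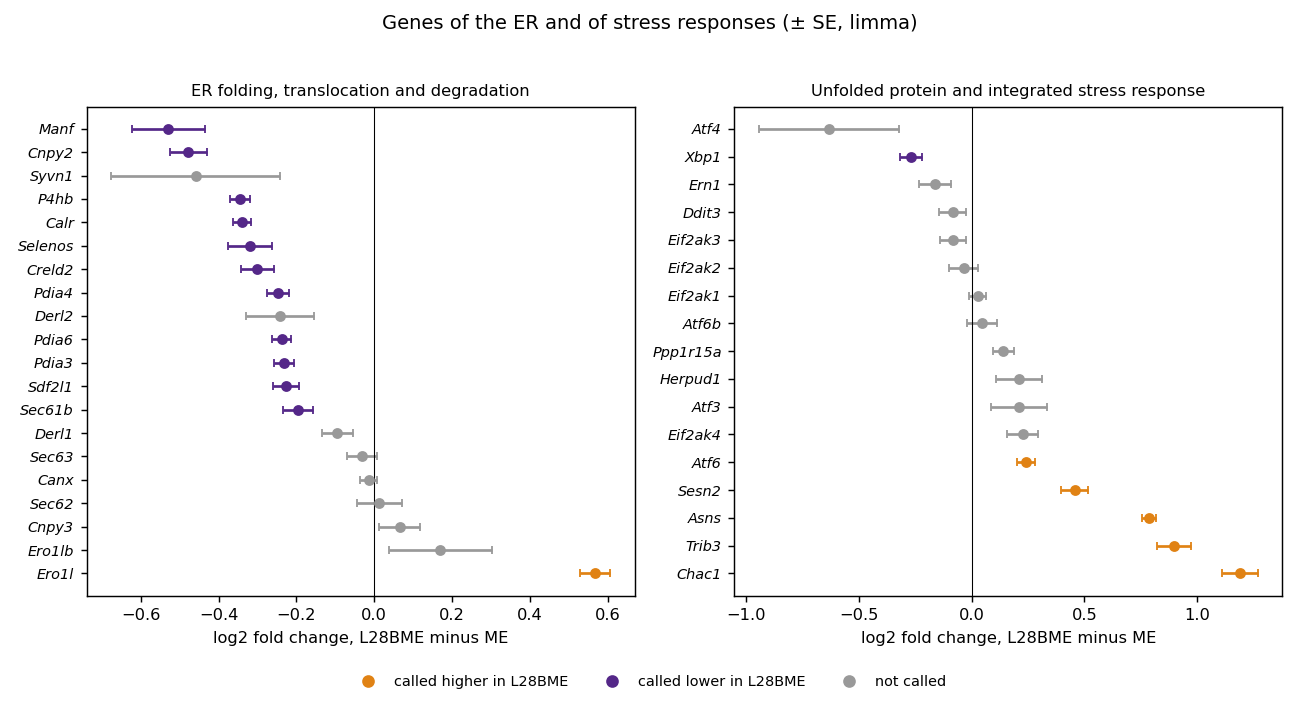
Log2 fold changes (L28BME minus ME, log2(TPM + 1) scale, bars for the SE from limma) of the tested genes of the ER folding list and of the unfolded protein and integrated stress response list, with called genes in colour. Most ER folding genes lie below 0 with Ero1l above it, and Asns, Chac1, Trib3 and Sesn2 lie above 0 with Xbp1 below it.

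Markers of maturing cells differed between the same libraries. For the counts that follow, 8.28% of all genes tested were called higher and 6.60% lower. A list of 8 primary granule markers held Mpo, Elane, Prtn3, Ctsg, Ms4a3, Nkg7, Gfi1 and Igsf6, not all of which encode granule proteins. Of these 8, 7 were called lower and Prtn3 was not called (limma adjusted p = 0.106). With single libraries left out, the Mpo call held only without L28BME replicate 3 (0.00448). The TPM of the 8 summed to between 7180 and 8037 in L28BME and between 10298 and 10465 in ME. Mpo was the largest part, at 4140 TPM in L28BME and 5074 TPM in ME. Of 8 neutrophil markers, 4 were called higher and 1 lower, with sums of 537 to 564 TPM in L28BME and 221 to 231 TPM in ME. S100a8 and S100a9 made up most of these sums, at 241 and 237 TPM in L28BME and 93.8 and 85.7 TPM in ME. Of 8 monocyte and macrophage markers, 3 were called higher and 4 lower, with sums of 299.5 to 326 TPM in L28BME and 411 to 440.4 TPM in ME. Ly6c2, called lower, made up most of these sums, at 190 TPM in L28BME and 289 TPM in ME. Of 8 megakaryocyte markers, 6 were called higher, with sums of 348 to 360.4 TPM in L28BME and 244 to 246 TPM in ME. Of 8 mast cell and basophil markers, 3 were called lower, with sums of 535 to 550.4 TPM in L28BME and 648 to 686 TPM in ME. Of 8 erythroid markers, 6 were tested, 2 were called higher and 1 lower, with sums of 456 to 467 TPM in L28BME and 518 to 526 TPM in ME. Tfrc, the 1 called lower, made up most of these sums, at 433 TPM in L28BME and 504 TPM in ME. Of the 6 tested, 5 had a log2 fold change of 0.00 or more, and the 2 called higher were Gata1 and Aqp1. Of 8 B-lymphoid markers, 4 were tested and 2 were called higher, with sums of 61.3 to 65.5 TPM in L28BME and 31.7 to 34.0 TPM in ME. Cd79b alone made up most of these sums, at 56.9 TPM in L28BME and 27.2 TPM in ME. Of 8 T-lymphoid markers, Lck alone was tested and was called higher, with sums of 32.9 to 36.0 TPM in L28BME and 19.0 to 20.4 TPM in ME. Lck made up most of these sums, at 33.1 TPM in L28BME and 19.8 TPM in ME. The T-lymphoid markers Cd3e, Cd8a and Bcl11b were listed at 0 in every library. No marker of the other lists was at 0 in every library. The part of such cells in the ER result was not tested.

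The cytosolic HSP70 and HSP110 genes showed a mixed picture. Hspa8, the constitutive HSP70 (HSC70), was the second most abundant member, with 1728, 1754 and 1749.6 TPM in L28BME, against 2046, 2522 and 1998 TPM in ME. The groups did not overlap, but ME replicate 2 stood far above the other ME libraries, and the gene was not called (log2 fold change -0.32, SE 0.089, limma adjusted p = 0.0658). Without ME replicate 2 the log2 fold change was -0.21 and the adjusted p 0.0158. The same library was the highest for Dnaja1, the main J partner of Hspa8, which had 164, 137 and 145 TPM in L28BME, against 180.2, 204 and 171 TPM in ME (log2 fold change -0.32, adjusted p = 0.0704).

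Hspa2, an HSP70 best known from spermatogenesis, showed the largest difference of the called members. It had 17.8, 15.6 and 17.5 TPM in L28BME, against 28.5, 29.2 and 29.2 TPM in ME. The ME libraries were nearly equal and well above the others, and Hspa2 fell by 0.74 on the log2 scale (SE 0.065, limma adjusted p = 0.00158), a call that held without any 1 library. Hsph1, the cytosolic HSP110 that resets HSP70, had 115, 111 and 99.2 TPM in L28BME, against 137, 132 and 141 TPM in ME. It fell by 0.33 (SE 0.063, adjusted p = 0.0213), but the call was lost without L28BME replicate 2 (0.0552), ME replicate 1 (0.0662), ME replicate 2 (0.0516) or ME replicate 3 (0.0733).

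The other HSP110 gene tested, Hspa4, was slightly higher in L28BME without being called, at 299.8 ± 2.99 TPM in L28BME and 287 ± 2.33 TPM in ME (SD, n = 3 each; log2 fold change 0.06, adjusted p = 0.150). Hspa14, a ribosome-bound HSP70, averaged 161 ± 2.72 TPM in L28BME and 151 ± 2.10 TPM in ME (adjusted p = 0.0856), and its ribosome partner Dnajc2 averaged 153 ± 4.88 TPM in L28BME and 146 ± 9.88 TPM in ME (adjusted p = 0.494). The stress-induced HSP70 genes were below 1 TPM throughout. Hspa1a stayed at or below 0.388 TPM and Hspa1b at or below 0.727 TPM in all 6 libraries, and neither was tested. Hspa1l and Hspa4l, which are best known from testis, also stayed below 1 TPM.

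The cytosolic HSP90 genes were not called. Hsp90ab1, the constitutive form and the most abundant of all members, had 4004, 4097 and 4215 TPM in L28BME, against 4277, 4183 and 4329 TPM in ME, so the groups overlapped (log2 fold change -0.05, limma adjusted p = 0.260). Hsp90aa1, the inducible form, had 785, 734 and 759 TPM in L28BME, against 792, 888 and 800.1 TPM in ME (log2 fold change -0.12, adjusted p = 0.190). For Hsp90aa1 the groups were apart, and its highest library was again ME replicate 2. The TPM of Hsp90b1 over that of Hsp90ab1 was 0.268 ± 0.0093 in L28BME and 0.314 ± 0.0089 in ME (SD, n = 3 each). This ratio was lower in every L28BME library than in any ME library, and its difference was not tested.

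Few HSP90 co-chaperones were called. Of 21 listed, 20 were tested, 1 rose and 1 fell, against 8.28% higher and 6.60% lower of all genes. The median log2 fold change of the list was 0.03. Ahsa1, which speeds up the ATPase of HSP90, averaged 298 ± 6.14 TPM in L28BME and 332 ± 6.58 TPM in ME (SD, n = 3 each) and fell by 0.15 (limma adjusted p = 0.0230). Its call was lost without L28BME replicate 1 (0.0743), L28BME replicate 2 (0.0723), ME replicate 2 (0.0717) or ME replicate 3 (0.0758). Stip1, which links HSP70 to HSP90, averaged 449 ± 3.42 TPM in L28BME and 420.2 ± 4.36 TPM in ME and rose by 0.10 (adjusted p = 0.0465), but without any 1 library its adjusted p was 0.0858 to 0.131. Next came Fkbp8, an anchored immunophilin (log2 fold change 0.17, adjusted p = 0.157), and Tsc1 (log2 fold change 0.16, adjusted p = 0.164).

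No gene of the heat shock factor list was called by limma, and 0 of the 3 tested had an unadjusted p under 0.05. Hsf1, the master factor of the heat shock response, averaged 48.2 ± 4.52 TPM in L28BME and 47.8 ± 12.8 TPM in ME (SD, n = 3 each), and Hsf2 averaged 18.8 ± 0.213 TPM in L28BME and 20.7 ± 1.56 TPM in ME (limma adjusted p = 0.911 and 0.254). Hsbp1, which binds and restrains heat shock factor, was the third tested of the 7 listed and had a log2 fold change of 0.08. The heat shock element was searched as TTCNNGAANNTTC, where N is any base, on both strands, and stood in 179 of 27025 promoter windows, or 0.662%. Members with a match were Hspd1, Hspe1, Hsph1 and Dnajb6. Hspd1 and Hspe1 lie head to head on chromosome 1, where their gene models overlap, and the same stretch holds the match of both. It lies inside the Hspd1 gene model and upstream of Hspe1, and is shown here on the plus strand at chr1:55088053-55088082 with 2 overlapping matches in capitals.
Hspe1: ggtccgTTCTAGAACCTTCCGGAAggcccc

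Hspe1, the cap of the mitochondrial chaperonin, had 474, 489 and 467 TPM in L28BME, against 538, 543 and 530.1 TPM in ME. With the groups apart, it fell by 0.17 on the log2 scale (SE 0.028, limma adjusted p = 0.0129), a call lost without ME replicate 2 (0.0526), held without any other single library, and lost with no intensity trend in the fit (0.0550). Hspd1, which forms the chamber, had 963, 990.3 and 958 TPM in L28BME, against 1009.6, 1028 and 993 TPM in ME. It also did not overlap, by a narrow margin, and was not called (log2 fold change -0.06, SE 0.026, adjusted p = 0.206). The TPM of Hspd1 over that of Hspe1 was 2.03, 2.02 and 2.05 in L28BME and 1.88, 1.89 and 1.87 in ME. The genes share 112 exonic bases on opposite strands, and whether strand was used in quantification is not given in the sources used here.

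Hspa9, the mitochondrial HSP70 (mortalin) that pulls proteins through the inner membrane, was the only member called higher, with 833, 839 and 822 TPM in L28BME, against 776, 774 and 768 TPM in ME. It rose by 0.11 (SE 0.022, limma adjusted p = 0.0275), a small step with tight groups. Without any 1 library other than L28BME replicate 3 its adjusted p was 0.0673 to 0.0891, and without L28BME replicate 3 it was 0.0496.

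Dnaja3, the mitochondrial J partner of Hspa9, went the other way, with 80.7, 79.5 and 78.7 TPM in L28BME, against 85.1, 90.8 and 90.7 TPM in ME. It fell by 0.16 (SE 0.039, limma adjusted p = 0.0491). The call held without ME replicate 1 (0.0454) and was lost without any other library (0.104 to 0.141), and Dnaja3 shares exonic bases with Coro7 on the opposite strand and Vasn on the same strand. Summed over the 8 mitochondrial members, the level was 2496 ± 41.1 TPM in L28BME and 2549 ± 34.3 TPM in ME (SD, n = 3 each). Of the 8, 1 was called higher, 2 lower and 5 not called, against 8.28% higher and 6.60% lower of all genes. Among the tested HSP70 genes of organelles, Hspa5 and Hspa13 of the ER fell, while Hspa9 rose by its small step. The TPM of Hspa5 over that of Hspa9 was 0.814, 0.760 and 0.754 in L28BME and 1.01, 1.06 and 1.02 in ME.

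Of 15 genes for other mitochondrial chaperones, import receptors and proteases, all were tested with limma and none was called, while 3 had an unadjusted p under 0.05, all of them higher in L28BME, against 29.6% of all genes tested at that p in either direction. Tomm70a, an outer-membrane receptor that docks HSP70 and HSP90 with their clients, came nearest, at 122 ± 0.630 TPM in L28BME and 113 ± 1.71 TPM in ME (SD, n = 3 each; log2 fold change 0.11, limma adjusted p = 0.0529). The iron-sulfur J protein Hscb had a log2 fold change of 0.22 (adjusted p = 0.0926) and the inner-membrane protease Yme1l1 one of 0.09 (adjusted p = 0.127). Trap1, the HSP90 of mitochondria, averaged 244 TPM in L28BME and 235 TPM in ME (adjusted p = 0.240). Genes encoded in the mitochondrial genome took 4.49% to 4.85% of all TPM in L28BME and 4.12% to 4.35% in ME, and the part of this shift in the values above was not tested.

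No subunit of the CCT ring was called between the groups. Each ring is built from 1 copy of each of 8 different subunits, all of which were tested with limma. Of these 8, 1, Cct6a, had an unadjusted p under 0.05, against 29.6% of all genes tested. Their log2 fold changes ran from -0.08 for Cct3 to 0.08 for Cct7, with a median of 0.01. The TPM of the 8 subunits summed to 4749, 4835 and 4567 in the L28BME libraries and to 4641, 4760.0 and 4694 in the ME libraries. The groups overlapped, with means of 4717 ± 137 TPM in L28BME and 4698 ± 59.5 TPM in ME (SD, n = 3 each).

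Within the ring the subunits kept their order at both ends. Cct4 was the lowest and Cct5 the highest in all 6 libraries, and Cct5 exceeded Cct4 by 2.29 to 2.44 times in L28BME and by 2.30 to 2.46 times in ME. Cct5 averaged 831 ± 3.30 TPM in L28BME and 825 ± 13.1 TPM in ME, and Cct4 averaged 352 ± 10.4 TPM in L28BME and 351 ± 8.53 TPM in ME. Between them lay Cct2, at 795 ± 23.7 TPM in L28BME and 782 ± 24.0 TPM in ME, and Tcp1, the first subunit described, at 677 ± 20.0 TPM in L28BME and 641 ± 17.0 TPM in ME (log2 fold change 0.08, limma adjusted p = 0.189; SD, n = 3 each).

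Cct3, Cct6a and Cct8 lay close together, at means of 523, 524 and 553 TPM in L28BME and 554, 552 and 558 TPM in ME, and Cct7 averaged 461 ± 25.0 TPM in L28BME and 435 ± 1.80 TPM in ME (SD, n = 3 each). In L28BME, Cct3 and Cct6a differed by less than the spread between libraries, as did Cct3, Cct6a and Cct8 in ME. The groups did not overlap for Cct6a (log2 fold change -0.08, adjusted p = 0.153) and Cct7 (log2 fold change 0.08, adjusted p = 0.262), in opposite directions. Of the paralogues outside the somatic ring, Cct6b, a testis form, stayed below 1 TPM and Cct8l1 was at 0 in every library.

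**Figure D4:**
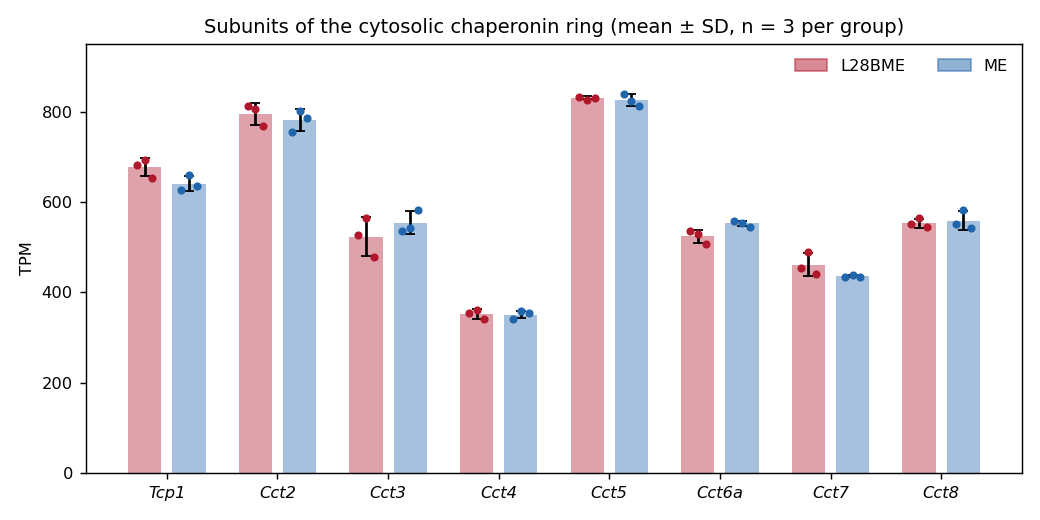
TPM of the 8 CCT subunits in each of the 3 L28BME libraries (left of each pair) and the 3 ME libraries (right), with points for libraries, columns for means and black bars for the SD. Cct4 is lowest and Cct5 highest in every library, and no subunit was called between the groups.

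Prefoldin hands actin and tubulin chains to CCT, and related proteins form a second, prefoldin-like complex. A list of 13 prefoldin and CCT cofactor genes had a median log2 fold change of 0.02. Of these, 12 were tested, 1 rose and 2 fell, against 8.28% higher and 6.60% lower of all genes. All 3 belong to the prefoldin-like complex: Uxt fell by 0.22 on the log2 scale (limma adjusted p = 0.0131), Pdrg1 fell by 0.34 (adjusted p = 0.0452), and Uri1 rose by 0.20 (adjusted p = 0.0485). Uxt lost its call without ME replicate 2 (0.0530) or ME replicate 3 (0.0517), Pdrg1 held only without L28BME replicate 1 (0.0432) and reached 0.129 otherwise, and Uri1 lost it without any 1 library (0.0617 to 0.134). The prefoldin subunits Pfdn1, Pfdn2, Vbp1, Pfdn4, Pfdn5 and Pfdn6 were not called, Pfdn4 with a log2 fold change of 0.36 (adjusted p = 0.0930).

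J proteins are the largest family here, with 45 members, of which 37 were tested with limma, 5 fell and none rose. Over all genes tested, 6.60% were called lower and 8.28% higher. At an unadjusted p under 0.05, 9 of the 37 were lower and 0 higher, against 13.7% lower and 16.0% higher of all genes tested. Outside the ER and mitochondria, Dnajc6, the auxilin that helps HSP70 strip clathrin from vesicles, had 35.0, 34.1 and 31.5 TPM in L28BME, against 43.7, 44.0 and 39.8 TPM in ME. It fell by 0.33 (SE 0.063, limma adjusted p = 0.0208), and the call was lost without L28BME replicate 2 (0.0569), L28BME replicate 3 (0.0574), ME replicate 1 (0.0682) or ME replicate 2 (0.0727). Dnajc13, a J protein of endosomes, did not overlap between groups, at 41.4 ± 1.09 TPM in L28BME and 46.4 ± 2.52 TPM in ME (SD, n = 3 each), but was not called (adjusted p = 0.107).

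Several abundant J proteins were not called. Dnajc9, a histone chaperone, averaged 233 ± 2.27 TPM in L28BME and 237 ± 5.52 TPM in ME, Dnaja2 averaged 234 ± 5.26 TPM in L28BME and 227 ± 2.94 TPM in ME, and Dnajc7 averaged 179 ± 2.52 TPM in L28BME and 181 ± 2.55 TPM in ME (SD, n = 3 each). Dnajb1, the heat-induced J protein that works with Hsph1 and Hspa8 on aggregates, averaged 51.2 ± 1.24 TPM in L28BME and 54.4 ± 2.02 TPM in ME (limma adjusted p = 0.267). Dnajb12 and Dnajb14, ER membrane proteins whose J domain faces the cytosol, were not called, with log2 fold changes of -0.06 and -0.07.

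The 6 uncalled members with the largest fold changes were Dnajb2, Dnajb4, Dnajb5 and Dnajc14, described here, with Hspa8 and Dnaja1, described above. Dnajb2, a J protein of neurons with ubiquitin-binding motifs, had 6.62, 10.1 and 6.23 TPM in L28BME, against 10.9, 11.6 and 10.3 TPM in ME (log2 fold change -0.49, limma adjusted p = 0.116, and 0.0151 without L28BME replicate 2). Dnajb4 had 19.8, 18.9 and 8.25 TPM in L28BME, against 19.9, 20.9 and 20.5 TPM in ME (log2 fold change -0.45, adjusted p = 0.389), so that 1 L28BME library stood apart. Dnajb5 was near 2 TPM throughout, at 1.70 ± 0.237 TPM in L28BME and 2.51 ± 0.433 TPM in ME.

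Dnajc14 averaged 38.8 ± 4.14 TPM in L28BME and 31.4 ± 7.20 TPM in ME (adjusted p = 0.293), and it shares 1114 exonic bases with Ormdl2 on the opposite strand. Dnajc8, a J protein of the spliceosome, had 197, 203 and 309.6 TPM in L28BME, against 254, 195 and 181 TPM in ME. Its groups overlapped, with 1 library of each standing above the rest.

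The small heat shock proteins, which hold unfolded proteins without ATP, were mostly below 1 TPM. Of 8 listed, 2 were tested: Hspb11, a part of the cilium transport complex, at 11.5 ± 0.490 TPM in L28BME and 9.76 ± 1.75 TPM in ME, and Hspb6, at 7.37 ± 1.89 TPM in L28BME and 9.51 ± 2.96 TPM in ME (SD, n = 3 each). Neither was called by limma or had an unadjusted p under 0.05. Hspb1, the small heat shock protein best known from stress and cancer, was listed at 0 TPM in 5 libraries and at 0.313 TPM in ME replicate 1. Hspb2, Hspb7 and Hspb8 were listed at 0 in every library.

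In all, 21 members were not tested, of which 9 were at 0 TPM in every library and the highest single value was 1.004 TPM, for Dnaja4 in ME replicate 3. Besides the genes named above these were Hspa12a, Hspb3, Hspb9, Dnajb3, Dnajb7, Dnajb8, Dnajb13, Dnajc5b, Dnajc5g and Dnajc22. The members together took 1.84%, 1.86% and 1.84% of all TPM in the L28BME libraries, against 1.95%, 2.01% and 1.94% in the ME libraries.

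Because LIN28B acts on let-7, the 3′ UTRs of the members were searched for CTACCTC, the DNA complement of the let-7 seed, whose bases 2 to 8 stand in capitals in the mature let-7a of RefSeq.
mmu-let-7a-5p: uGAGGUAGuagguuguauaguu
At least 1 such site stood in 9 of 61 tested members with an annotated 3′ UTR, or 14.8%, against 13.6% of all tested genes with one. Of the 9, none was called higher and 2, Dnajc3 and Dnajb11, were called lower. Of all 1494 tested genes with a site, 232 were called higher and 81 lower, and their median log2 fold change was 0.05, as was that of the 9 members. Over all genes tested, 8.28% were called higher and 6.60% lower, and the median log2 fold change was 0.003. The sites of the 2 called members, both on the plus strand of GRCm38, are at chr14:118980123-118980145 for Dnajc3 and chr16:22879511-22879533 for Dnajb11, with the match in capitals.
Dnajc3: agatctagCTACCTCctaacttg
Dnajb11: cttttccaCTACCTCtggcaggt
A match of letters is a description of the sequence and says nothing of whether let-7 acts on these transcripts.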

How the data were processed

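The tools that the authors list, per the submitters' processing notes, are StringTie, HISAT2, bcl2fastq and DESeq2, on GRCm38. No source used here gives their versions or the strand setting. Per the labels' protocols, RNA was isolated with a single cell RNA kit and libraries were made with a stranded mRNA kit. The deposited values are TPM per gene and library, made by the authors, and the deposited table also lists each gene's percent GC, a property of the annotation. TPM are not counts, so depth is unknown and count models were not used.

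The table held 60496 entries for 55471 IDs. For each of the 431 IDs with several entries, at most 1 entry held values. TPM summed to 999919 to 999996 per library. Genes with at least 1 TPM in 3 or more of the 6 libraries entered the test, which ran two-sided on log2(TPM + 1) with limma 3.58.1 (R 4.3.3) and its intensity trend. The method was tested on simulated data. On the log2 scale a fold change understates that of low genes.

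Named genes were the called members, the 15 most abundant members, the tested members of the HSP90 and chaperonin families, the 6 uncalled members with the largest fold change, up to 4 genes of each pathway list with the smallest p, and Lin28b. Other genes in the text were chosen after their values were seen. A single member, tested and not called, is neither named nor plotted here, but stays in the counts. The members and lists were chosen with earlier results of these data known, and lists are described by counts and medians only. Promoter windows and let-7a came from RefSeq, and 3′ UTRs from GENCODE for GRCm38. Overlaps of gene models came from the same annotation. Alternatives were other pseudocounts, filters, scalings, limma options, a GC correction, a replicate term and leaving out each library.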

Additional observations from a re-analysis of the deposited data

How the results depend on the processing

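Of the 12 called members, 6 (Hsp90b1, Hspa5, Hspa13, Dnajc3, Dnajc10 and Hspa2) kept their call in each of the 20 alternatives run, 6 of which left out a library, and 5 to 6 ER members were called lower in each. Across the 58 named genes, no called value changed sign. Dnaja3, Dnajb11, Hspa9, Hspe1 and Hsph1 lost their call in some of the 14 alternatives that kept all libraries. The count of members called higher, 1 as reported, was 0 with no filter, 0 with no intensity trend, 2 (Hspa9 and Tcp1) under quantile normalization, and 0 to 1 when single libraries were left out. The count called lower, 11 as reported, was 7 to 9 with single libraries left out, and 7 without ME replicate 2. Over all genes, leaving out a library gave 617 to 693 called higher and 461 to 582 called lower, against 1105 and 881 as reported, with fewer samples in the fit. The members' median log2 fold change ran from -0.046 to -0.017 over those fits.

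The labels do not say what libraries with the same replicate number share, and deviations of same-numbered libraries correlated at -0.032, -0.0743 and -0.0516. With the replicate block, 0 members were called higher and 8 lower, against 548 higher and 400 lower over all genes. With a GC trend removed as well, 0 members were called higher, against 544 higher and 409 lower over all genes. The alternatives with overlapping gene models summed and with protein-coding genes only were chosen after seeing the data. The unknown depth limits what can be said of members below 1 TPM, and a gene that was not called is not shown to be equal between groups.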
